A study of Mus musculus with 8 samples.

Results

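Netrins are secreted proteins related to laminins, and together with their cell-surface receptors they were followed here as 8 genes of the 55401 in the deposited kidney expression table. The ligands were *Ntn1* (netrin-1) and *Ntn4* (netrin-4), and the receptors were *Unc5a*, *Unc5b*, *Unc5c*, *Unc5d*, *Dcc* and *Neo1* (neogenin). The set was selected on earlier results of the contrast between the rFGF4-treated and the db/db model libraries, in which a wide difference in *Ntn1* was already known. Their differences between the groups are therefore given as a description, and calls of members at a threshold are counted but not offered as tests. RNA was sequenced from kidney of diabetic mice in 2 groups of 4 libraries. The labels give the tissue as kidney, the study's text calls it renal tissue, and its methods for RNA isolation and real-time PCR name the renal cortex, so the part of the kidney sampled is not settled here. The sample labels name the control group as db/db model (numbers 2, 3, 4 and 5), db/db mice being obese diabetic mice that lack a working leptin receptor. The other group is labelled rFGF4 treatment (numbers 1, 2, 3 and 5), rFGF4 being a recombinant human FGF4 altered so that it does not drive cell division. The labels of the rFGF4 libraries give no genotype, and the series' design text places both groups in the db/db model of diabetic kidney disease. The study's text instead ties its kidney RNA-Seq to mice made diabetic with streptozotocin (STZ), so which diabetes model these libraries came from is not settled here. In both of the study's models male mice received rFGF4 at 1 mg/kg body weight or PBS vehicle by intraperitoneal injection every other day for 8 weeks. The db/db mice were 12 weeks old at the first injection. For the STZ mice the descriptions of the starting age differ. No library of non-diabetic kidney was analysed here, and the labels do not say how many animals each library holds or that libraries came from separate animals. Tests here thus measure the spread between libraries, which may be technical in part.

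Netrin-1 was named for guiding growing axons: it attracts them through DCC and neogenin and repels them through the UNC5 family. Outside the nervous system the same receptors act in blood vessels and epithelia. UNC5B is best known from endothelial cells, and DCC and the UNC5 receptors are called dependence receptors because they can trigger cell death when no netrin is bound. In the kidney netrin-1 is made by tubule cells and has been studied in acute injury, and netrin-4 is a component of basement membranes that binds laminin.

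All genes below were placed by their Ensembl identifiers in GENCODE M21 (genome build GRCm38). *Ntn1* lies at chr11:68209364-68400823 on the minus strand with 3 annotated transcripts, of 944 to 5874 bases. *Ntn4* lies at chr10:93640681-93747207 on the plus strand, *Unc5b* at chr10:60762593-60831581 on the minus strand and *Neo1* at chr9:58874687-59036441 on the minus strand. *Unc5a* (chr13:54949411-55006018, plus), *Unc5c* (chr3:141465216-141834924, plus) and *Unc5d* (chr8:28646717-29219636, minus) are further receptors of the family. Exons of *Unc5a* overlap exons of *Hk3* and those of *Unc5c* overlap the antisense gene *Gm15688*, so without strand their reads cannot be told apart. No exon of another annotated gene overlaps those of *Ntn1*, *Ntn4*, *Unc5b* or *Neo1*.

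RefSeq promoter sequences (GRCm38.p6) were matched by symbol for 5 of the 8 members. The 250 bases before the start site are shown for the 3 of them that passed the filter on low values (below) to show the sequence at the start of each. For *Ntn4* RefSeq's start is that of the longer GENCODE transcript, so its window lies inside the gene as placed above, after the start of the shorter transcript. Capitals mark the GC box GGGCGG or its reverse complement CCGCCC, the sequence bound by SP1 and related factors.
Ntn4, chr10:93640799-93641048, plus strand: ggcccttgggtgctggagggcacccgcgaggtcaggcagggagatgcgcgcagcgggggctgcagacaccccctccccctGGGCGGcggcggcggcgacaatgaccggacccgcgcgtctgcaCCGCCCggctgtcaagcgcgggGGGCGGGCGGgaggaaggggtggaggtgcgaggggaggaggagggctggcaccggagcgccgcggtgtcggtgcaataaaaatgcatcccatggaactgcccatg
Neo1, chr9:59036442-59036691, minus strand: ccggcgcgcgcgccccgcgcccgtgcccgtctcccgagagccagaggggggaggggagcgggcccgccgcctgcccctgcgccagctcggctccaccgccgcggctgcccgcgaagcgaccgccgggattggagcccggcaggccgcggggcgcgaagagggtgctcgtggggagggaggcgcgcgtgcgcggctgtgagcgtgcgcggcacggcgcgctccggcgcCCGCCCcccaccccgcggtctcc
Unc5b, chr10:60831582-60831831, minus strand: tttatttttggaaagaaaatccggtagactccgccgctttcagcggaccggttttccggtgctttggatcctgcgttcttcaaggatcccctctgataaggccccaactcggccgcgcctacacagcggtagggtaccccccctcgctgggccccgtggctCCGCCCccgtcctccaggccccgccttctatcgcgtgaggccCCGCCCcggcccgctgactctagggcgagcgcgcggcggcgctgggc
The *Ntn4* window held 4 GC boxes, a pair of them overlapping, the *Unc5b* window held 2 and the *Neo1* window held 1. A GC box on either strand was present in 32.7% of the 32851 windows of the same length in the RefSeq table. The windows were rich in CG dinucleotides, with 26 in *Ntn4*, 45 in *Neo1* and 27 in *Unc5b* against a median of 6 over all windows. None of the 3 windows held TATAAA on either strand, which 12.4% of all windows did. A match to these letters is a description and does not show that a factor binds there.

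Levels were given as FPKM, fragments scaled by exon length and by the mapped fragments of the library, with 0.0001 standing in place of 0. Summed FPKM ran from 389407 to 529835 in the rFGF4 libraries and from 481321 to 552604 in the db/db model libraries. Absolute depth is unknown, while the step between low values put the libraries within 0.905 to 1.12 times the depth of db/db model 2. The library rFGF4 1 stood apart: 48.1% of the 15150 tested genes had their highest value in it, and its transcripts from the mitochondrial genome made up 19.0% of summed FPKM against 24.4% to 38.4% in the other 7 libraries. Its summed level of 5 proximal tubule markers was 188 FPKM, against 591 to 1051 FPKM in the others. All 5 podocyte and all 5 proximal tubule markers passed the filter in this kidney tissue, whereas none of the 3 neuron markers did, and these summed to at most 0.257 FPKM.

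A gene was tested when it reached 0.5 FPKM in at least 4 libraries, and differences were taken on the log2(FPKM + 1) scale, rFGF4 minus db/db model. The members *Ntn1*, *Ntn4*, *Unc5b* and *Neo1* passed this filter. *Unc5a*, *Unc5c*, *Unc5d* and *Dcc* did not. The study's own threshold was a p below 0.05 before adjustment and a ratio of 1.5 or more, or 0.67 or less. At that threshold limma called 1.53% of tested genes, 1.09% as higher and 0.442% as lower in the rFGF4 libraries. That split was 165 higher and 67 lower, and it was 93 and 83 after median-ratio scaling. No gene had a Benjamini-Hochberg adjusted p under 0.05 by limma, and 700 had an unadjusted p under 0.05. Of the 4 tested members 1 was at the threshold, *Ntn1*, and nothing is read from this count because that contrast chose the genes. In 3.33% of tested genes the values of the groups did not overlap at all, and none of the 4 tested members was among them.

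*Ntn1*, the ligand that gives the family its name, was listed at 11.4, 6.81, 8.42 and 5.85 FPKM in rFGF4 1, 2, 3 and 5. It was listed at 6.22, 0.183, 0.371 and 0.362 FPKM in db/db model 2, 3, 4 and 5. Of the values 5 were thus high and 3 were low, with no library between 0.371 and 5.85 FPKM, and the groups overlapped because db/db model 2 lay above rFGF4 5. The means were 8.12 ± 2.42 FPKM (SD, n = 4) with rFGF4 and 1.78 ± 2.96 FPKM (SD, n = 4) in the db/db model, a ratio of 4.55. The ratio of the medians was 20.8, so the size of the fold depends on how the groups are summarised. On the log2 scale the difference was 2.15 (SE 0.56). It ran from 1.90 to 2.77 with any 1 library left out, the highest value being that without db/db model 2 (SE 0.22), and was 3.33 (SE 0.89) with a pseudocount of 0.1.

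**Figure D1:**
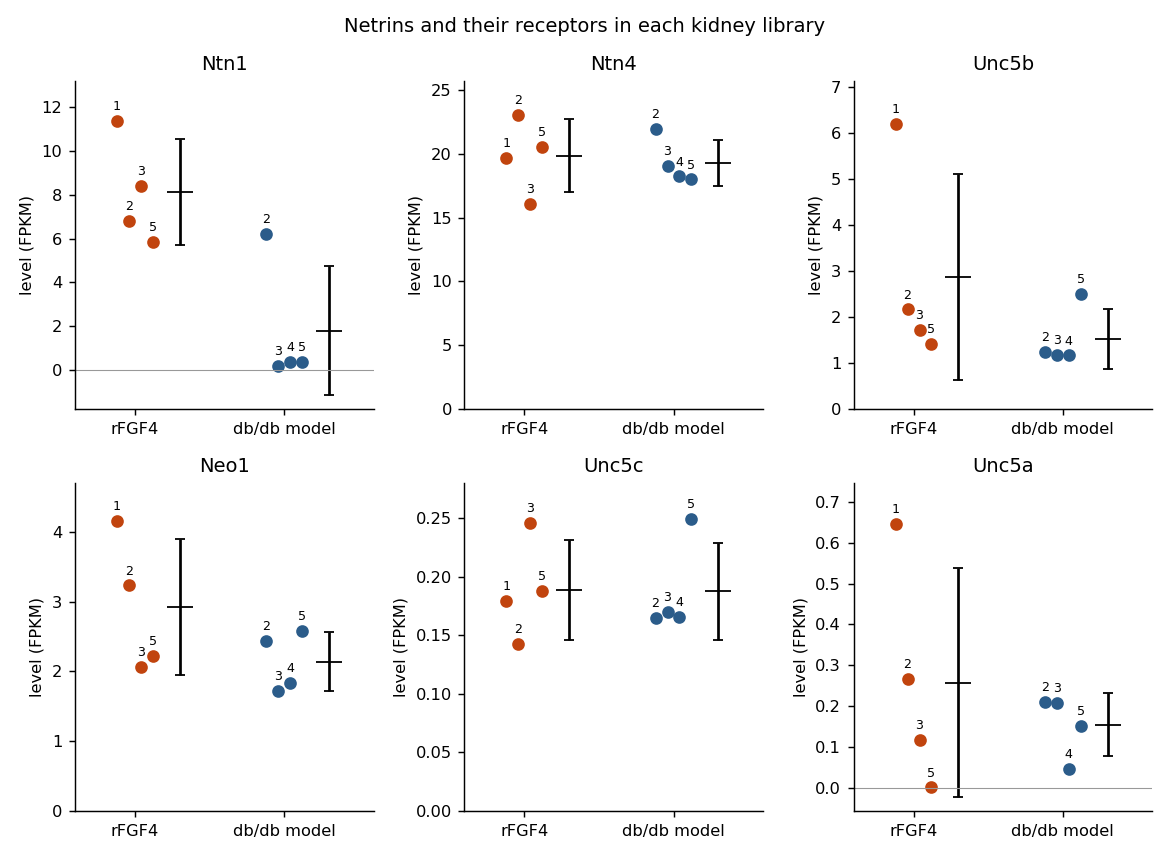
FPKM (vertical axes, linear, a different range for each gene) of 6 members in the 4 rFGF4 and the 4 db/db model libraries, each point labelled with its library number; horizontal marks and bars give the mean ± SD of each group. *Ntn1* was high in all 4 rFGF4 libraries and in db/db model 2, and *Unc5b*, *Neo1* and *Unc5a* had their highest value in rFGF4 1.

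The 3 low *Ntn1* libraries carried another mark, looked for after the *Ntn1* values were seen. Crystallins are the structural proteins of the eye lens. Of 16 crystallin genes in the table, 13 were higher in each of db/db model 3, 4 and 5 than in every other library. Without *Cryab*, a small heat shock protein that kidney also makes, crystallin genes summed to 23.3, 25.0 and 20.97 FPKM in db/db model 3, 4 and 5. In db/db model 2 they summed to 0.375 FPKM, and in the rFGF4 libraries to between 0.286 and 0.531 FPKM. *Cryaa*, encoding a major lens protein, was listed at 3.22, 3.01 and 3.43 FPKM in db/db model 3, 4 and 5 and at no more than 0.0637 FPKM elsewhere. *Crygb*, *Crygc*, *Cryge*, *Crygs*, *Crybb1*, *Crybb2* and *Cryba2* were at the value in place of 0 in all of the other 5 libraries. Over all genes of the series, 9 had at least 1 FPKM in db/db model 3, 4 and 5 and at least 5 times the highest value elsewhere, and 8 of them were crystallins. *Ntn1* was the only tested gene with the opposite arrangement, its lowest value in the other 5 libraries being at least 5 times its highest in these 3 (15.8 times). The crystallin signal and the low *Ntn1* values therefore fell in the same libraries, the sources used here name no batch for them, and the part of that difference in the *Ntn1* result was not tested. In db/db model 2, the db/db model library without the lens genes, *Ntn1* lay within the range of the rFGF4 libraries.

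**Figure D2:**
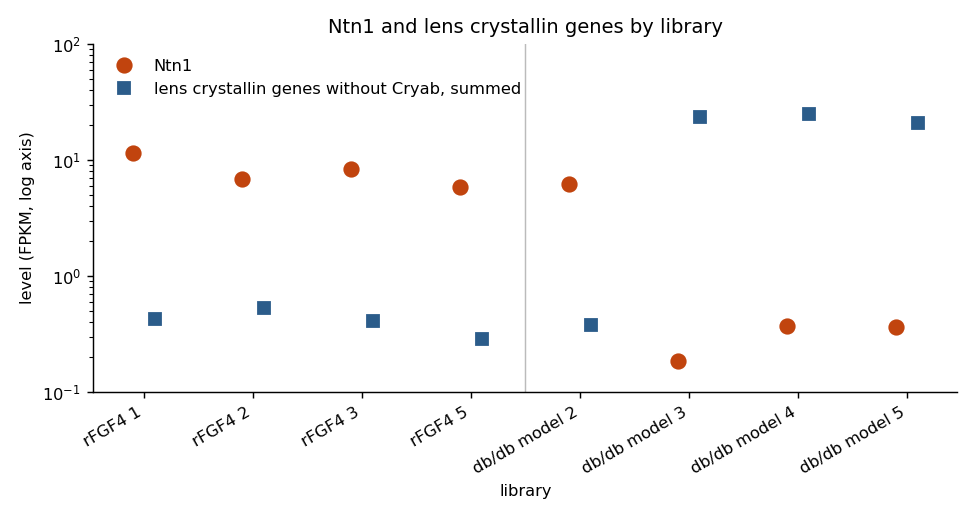
FPKM on a log axis (vertical) in each of the 8 libraries (horizontal), with circles for *Ntn1* and squares for the sum of lens crystallin genes without *Cryab*; the vertical line parts the groups. In db/db model 3, 4 and 5 the squares lie at 20.97 to 25.0 FPKM and the circles under 0.5 FPKM, and in the other 5 libraries the order is reversed.

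Some other genes also went from high to near 0 between libraries. Of the tested genes, 6 had at least 5 FPKM in 5 or more libraries and under 0.5 FPKM in 3 or more, *Ntn1* among them. The other 5, named after their values were seen, were *Adnp*, *Cldn2*, *E130102H24Rik*, *Igkv5-43* and *Septin2*. *Cldn2*, the claudin of the leaky tight junctions of the proximal tubule, was listed between 96.0 and 227 FPKM in 5 libraries and between 0.00371 and 0.0453 FPKM in rFGF4 2, db/db model 2 and db/db model 4. *Septin2*, a cytoskeletal gene of most cells, was at the value in place of 0 in rFGF4 2, db/db model 4 and db/db model 5 and at 17.6 to 41.2 FPKM elsewhere. Those low values did not follow the groups, so a low listed value in this table can occur in genes that kidney cells use, and low RNA and a failed estimate cannot be told apart for *Ntn1*. The gene next to *Ntn1*, *Stx8*, was listed between 2.31 and 3.44 FPKM in all 8 libraries. The gene on its other side, *Pik3r5*, was listed at 4.07, 1.47, 0.448 and 0.331 FPKM in rFGF4 1, 2, 3 and 5 and at 0.0542, 1.11, 0.264 and 4.05 FPKM in db/db model 2, 3, 4 and 5, so that its highest values fell in rFGF4 1, where *Ntn1* was high, and in db/db model 5, where *Ntn1* was low.

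*Ntn4* was the most abundant member and varied least between libraries among the members with a value in all 8. It was listed at 19.7, 23.0, 16.1 and 20.6 FPKM in rFGF4 1, 2, 3 and 5 and at 21.9, 19.1, 18.2 and 18.0 FPKM in db/db model 2, 3, 4 and 5. The groups overlapped throughout, with means of 19.8 ± 2.86 and 19.3 ± 1.81 FPKM (SD, n = 4 each). The difference was 0.03 on the log2 scale (SE 0.13). Its direction was not settled, since it was -0.09 after median-ratio scaling and -0.04 without rFGF4 2. Over the 8 libraries the highest value was 1.43 times the lowest, and 20.2% of tested genes had a smaller SD within groups, against 94.4% for *Ntn1*, 84.5% for *Unc5b* and 52.3% for *Neo1*.

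Of the receptors, *Unc5b* was listed at 6.21, 2.17, 1.72 and 1.43 FPKM in rFGF4 1, 2, 3 and 5. In db/db model 2, 3, 4 and 5 it was listed at 1.25, 1.19, 1.17 and 2.51 FPKM. One library stood above the rest in each group, rFGF4 1 and db/db model 5, and the groups overlapped through db/db model 5. The difference was 0.50 on the log2 scale (SE 0.35) and was 0.16 without rFGF4 1. *Neo1*, whose product binds netrins and also the repulsive guidance molecules, was listed at 4.15, 3.23, 2.07 and 2.22 FPKM in rFGF4 1, 2, 3 and 5 and at 2.43, 1.72, 1.83 and 2.58 FPKM in db/db model 2, 3, 4 and 5. Here rFGF4 1 and 2 were above every db/db model library and rFGF4 3 and 5 were among them. The difference for *Neo1* was 0.30 (SE 0.20), or 0.16 without rFGF4 1. The median over all tested genes was 0.09, and 67.1% of them had a positive difference. After median-ratio scaling that median was -0.01, and the differences were 0.41 for *Unc5b*, 0.20 for *Neo1* and 2.05 for *Ntn1*.

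**Figure D3:**
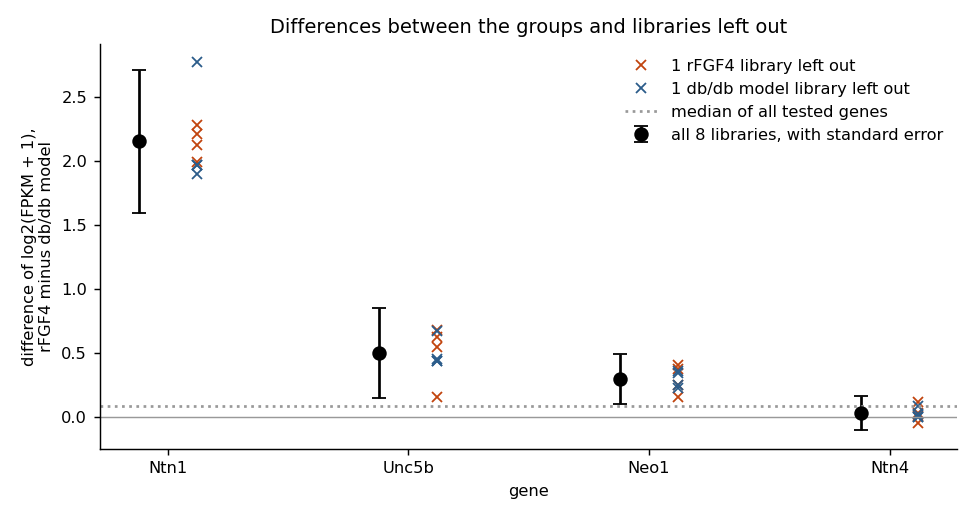
Difference in log2(FPKM + 1), rFGF4 minus db/db model (vertical axis), for the 4 members that passed the filter; circles with bars give all 8 libraries and the standard error, crosses the value with 1 library left out, and the dotted line the median of all tested genes. Without rFGF4 1 the *Unc5b* value went from 0.50 to 0.16, while *Ntn1* stayed between 1.90 and 2.77.

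The other receptors were listed at low values or at the value in place of 0, which in this table cannot be read as absence. *Unc5c* was listed at 0.179, 0.143, 0.246 and 0.188 FPKM in rFGF4 1, 2, 3 and 5 and at 0.165, 0.170, 0.166 and 0.249 FPKM in db/db model 2, 3, 4 and 5. These ranges lay almost on top of each other, and the log2 difference, fitted without the filter, was 0.00 (SE 0.06). *Unc5a* was listed at 0.646, 0.267 and 0.116 FPKM in rFGF4 1, 2 and 3, at the value in place of 0 in rFGF4 5, and at 0.209, 0.208, 0.0447 and 0.151 FPKM in db/db model 2, 3, 4 and 5. Its highest and its lowest value were both in the rFGF4 group, and the unfiltered difference was 0.10 (SE 0.16). *Unc5d* had a value only in rFGF4 5 (0.00613 FPKM) and db/db model 5 (0.00534 FPKM). *Dcc*, the founding netrin receptor of axon guidance, (chr18:71253634-72351069, minus strand) was at the value in place of 0 in all 8 libraries. No fold is given for either gene.

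By mean FPKM over the 8 libraries the order was *Ntn4* (19.6), *Ntn1* (4.95), *Neo1* (2.53), *Unc5b* (2.21), *Unc5a* (0.205), *Unc5c* (0.188), *Unc5d* (0.00151) and *Dcc*. FPKM is scaled by length, so these levels can be set side by side. The place of *Ntn1* depended on the group: it was above *Neo1* in the rFGF4 libraries alone (a mean difference of 1.21 on the log2(FPKM + 1) scale) and below it in the db/db model libraries alone (-0.64). Neighbours were compared within libraries on the log2(FPKM + 1) scale by a two-sided exact sign-flip permutation test with Benjamini-Hochberg adjustment over all 7 neighbouring pairs, for which the smallest unadjusted p possible is 0.0078. The pairs were set by the means of these same libraries, and the *Ntn1* values were already known. The p-values of these comparisons therefore only describe the order. *Ntn4* was above *Ntn1* and *Unc5b* above *Unc5a* in 8 of 8 libraries, each with an exact adjusted p of 0.018. *Ntn1* was above *Neo1* in 5 libraries and below it in 3 (exact adjusted p = 0.63). *Neo1* was above *Unc5b* in 7 of 8 libraries, by 0.23 ± 0.34 (SD) on that scale (exact adjusted p = 0.18), the exception being rFGF4 1. *Unc5a* and *Unc5c* were not separated (exact adjusted p = 0.95). No order is drawn from the last 2 places, since *Unc5d* was at the value in place of 0 in 6 libraries and *Dcc* in all 8.

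*Unc5b* and *Neo1*, the receptors present above the filter, varied together within the groups. After the mean of each group was subtracted, Pearson's r between them was 0.86 and Spearman's rho was 0.93 over 8 libraries. Among 6 pairs of members, tested by two-sided exact permutation within groups, only this pair had an adjusted p under 0.05 for Pearson's r (exact p = 0.0069, adjusted 0.042), while Spearman's rho gave an exact p of 0.010 and an adjusted p of 0.063. It was 0.90 within the rFGF4 libraries and 0.72 within the db/db model libraries. With the 2 libraries farthest from the median of *Neo1* left out, r was 0.67. After median-ratio scaling r was 0.62 (exact adjusted p = 0.30), so the call was lost under that scaling. Before that scaling, 2042 of 13198 other genes had an r over 0.9 with *Unc5b*, and 379 had one with *Neo1*. The relation is therefore not particular to this pair. For *Ntn1* and *Ntn4*, the 2 ligands, r was 0.38 (exact p = 0.27, adjusted 0.54), and it was -0.38 within the rFGF4 libraries and 0.94 within the db/db model libraries. Each within-group value rests on 4 libraries, and db/db model 2 was the highest of its group in both genes. Between *Ntn1* and its receptors r was 0.40 for *Neo1* (exact adjusted p = 0.54) and 0.13 for *Unc5b* (exact adjusted p = 0.83). The remaining pairs gave 0.43 for *Ntn4* with *Neo1* (exact adjusted p = 0.67) and -0.03 for *Ntn4* with *Unc5b* (exact adjusted p = 0.94). Both moved with the setting: after median-ratio scaling they were 0.03 (exact adjusted p = 0.97) and -0.72 (exact adjusted p = 0.25), and without the 2 libraries farthest from the median of *Ntn4* they were -0.01 and -0.37, so neither value is settled.

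**Figure D4:**
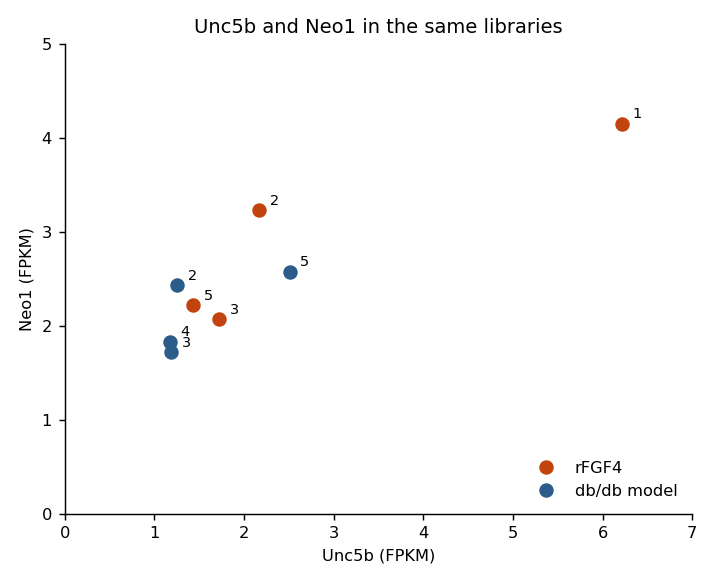
FPKM of *Neo1* (vertical axis) against FPKM of *Unc5b* (horizontal axis), both linear, in the 8 libraries, coloured by group and labelled with the library number. The library rFGF4 1 lies far out at 6.21 and 4.15 FPKM, and the db/db model library highest in both genes is number 5.

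Some cell marker lists were highest or lowest in the same libraries. The macrophage list, with 4 of 4 markers past the filter and none at 0 throughout, summed to 246 FPKM in rFGF4 1 and 277 FPKM in db/db model 5, against 16.3 to 105 FPKM in the other 6. The fibroblast list, with 3 of 3 markers past the filter, summed to 45.4 and 69.3 FPKM in those libraries and to 6.22 to 25.4 FPKM in the others. The arterial endothelium list, with 3 of 4 markers past the filter, ran from 2.62 to 7.08 FPKM with rFGF4 and from 3.51 to 6.81 FPKM in the db/db model, again highest in rFGF4 1 and db/db model 5 within each group. The general endothelium list, with 6 of 6 past the filter, ran from 27.3 to 37.2 FPKM with rFGF4, where rFGF4 1 was at 31.6 FPKM, and from 30.9 to 47.1 FPKM in the db/db model, where number 5 was highest. The lymphocyte list, with 2 of 4 past the filter, summed to 2643 FPKM in rFGF4 1 and 22370 FPKM in db/db model 5, the smooth muscle and pericyte list, with 4 of 4, to 79.9 and 120.1 FPKM, each the highest of its group. The distal convoluted tubule list (29.8 and 95.3 FPKM) and the thick ascending limb list (920 and 806 FPKM), each with 3 of 3 past the filter, were the lowest of their groups in the same libraries. The red blood cell list, with 3 of 3 past the filter, was also the lowest of its group there (71.0 and 652 FPKM). Other lists did not follow rFGF4 1 and db/db model 5 in this way: in db/db model 5 the podocyte list (76.0 FPKM) was below db/db model 3 (84.8 FPKM) and the proximal tubule list (608 FPKM) was above it (591 FPKM), and in rFGF4 1 the urothelium list (41.7 FPKM) was below rFGF4 2 (45.2 FPKM) and the intercalated cell list (47.0 FPKM) above rFGF4 3 (44.9 FPKM). The part of these markers in the *Unc5b* and *Neo1* values was not tested, and in bulk tissue more cells of a type and more RNA per cell cannot be told apart.

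The genes whose values most resembled each member were taken from 13198 others with a mean of at least 1 FPKM, by Pearson's r over the 8 libraries after subtracting group means. For *Ntn1* they were *Itgav*, the integrin alpha V subunit (r = 0.99), *Prrc2b* (0.99) and *Idi1*, an enzyme of cholesterol synthesis (0.97). All 3 were far higher in db/db model 2 than in any other library. *Itgav* was highest in db/db model 2 at 5.30 FPKM and lowest in db/db model 3 at 0.384 FPKM, with 0.841 to 1.89 FPKM in the rFGF4 libraries and 0.901 FPKM in db/db model 5, where *Ntn1* was low. For *Ntn4* they were *Slc14a2*, the urea transporter of the inner medulla (0.97), *Pou3f3*, a transcription factor of the distal nephron (0.95), and *Tk2*, the mitochondrial thymidine kinase (0.95). For *Neo1* they were *Mtch1*, *Plekhg1* and *Pdp1* (0.986 to 0.996), and for *Unc5b* they were *Slc35f5*, *Psmg2* and the desmosomal cadherin *Dsg2* (0.996 to 0.997). An r over 0.9 was found with 2042 genes for *Unc5b* and 379 for *Neo1*, but with 25 for *Ntn1* and 10 for *Ntn4*.

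The wider pathway was followed as 52 further genes in 5 lists, of which 38 passed the filter. None had an adjusted p under 0.05 by limma, 1 was at the study's threshold as higher with rFGF4 and none as lower, beside 1.09% and 0.442% of all tested genes. The gene was *Pak1*, the kinase that acts downstream of RAC1 and CDC42. It was listed at 17.5, 13.4, 14.4 and 9.58 FPKM in rFGF4 1, 2, 3 and 5 and at 7.52, 6.65, 8.21 and 10.1 FPKM in db/db model 2, 3, 4 and 5, so that the groups overlapped through rFGF4 5 and db/db model 5. Its log2 difference was 0.67 (SE 0.19), with a limma unadjusted p of 0.0078 and an adjusted p of 0.92, and it was no longer at the threshold without rFGF4 1 or after median-ratio scaling. *Wasl*, an activator of actin branching (0.36, SE 0.11), and *Ppp2r1b*, a scaffold subunit of the phosphatase PP2A (0.35, SE 0.14), had groups that did not overlap but differences under the fold limit, and are named after their values were seen. They were 2 of the 38 genes, beside 3.33% of all tested genes, and nothing is read from that count. In 33 of the 38 genes the difference was positive, with a median of 0.23, beside 67.1% and 0.09 over all tested genes, and 30 of the 38 had their highest value in rFGF4 1. Without rFGF4 1 the difference was positive in 26 of 38 with a median of 0.08, beside 52.2% and 0.01 over all tested genes. Without both rFGF4 1 and db/db model 2 it was positive in 22 of 38 with a median of 0.03, beside 47.4% and -0.01 over all tested genes. On the 6 libraries with shared numbers, which also leave out rFGF4 1, it was positive in 23 of 38 with a median of 0.03, beside 46.7% and -0.02. After median-ratio scaling it was positive in 28 of 38 with a median of 0.14, beside 47.6% and -0.01.

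Of the 10 other ligands, 3 passed the filter: *Ntng2*, a membrane-anchored netrin-G (-0.19, SE 0.29), and the repulsive guidance molecules *Rgma* (0.05, SE 0.13) and *Rgmb* (0.15, SE 0.20). *Ntn3*, *Ntn5* and *Ntng1* had means of 0.0274, 0.0052 and 0.0260 FPKM, so *Ntn1* and *Ntn4* were the secreted netrins measured above the filter. Of the 12 other receptors and co-receptors, 7 passed. The most abundant were the integrin subunits *Itgb1* (69.7 ± 29.7 and 48.1 ± 12.8 FPKM, SD, n = 4 each, rFGF4 first) and *Itga3* (19.99 ± 13.6 and 10.0 ± 3.91 FPKM), and the differences over the 7 ran from -0.27 for *Robo4* to 0.78 for *Itga3*, with a median of 0.42. *Adora2b*, an adenosine receptor reported to bind netrin-1, had a difference of 0.17 (SE 0.30). The 18 signal transduction genes held 16 that passed, with a median of 0.26. The small GTPases *Cdc42* (92.9 ± 28.7 and 73.3 ± 17.0 FPKM) and *Rac1* (56.5 ± 14.5 and 42.9 ± 7.10 FPKM) were the most abundant, with differences of 0.31 (SE 0.24) and 0.37 (SE 0.20).

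All 8 genes of the list on cell death through dependence receptors passed the filter, with differences from 0.10 to 0.35 and a median of 0.21, beside 67.1% positive and a median of 0.09 over all tested genes, and 7 of the 8 had their highest value in rFGF4 1. *Maged1*, which binds the intracellular part of UNC5A, had a mean of 23.2 ± 5.67 FPKM with rFGF4 and 19.8 ± 3.62 FPKM in the db/db model, and the ubiquitin ligase *Siah1a*, which targets DCC, had 8.92 ± 2.39 and 8.10 ± 1.07 FPKM. The 4 basement membrane partners of netrin-4 all passed, with a median of 0.39 and each with its highest value in rFGF4 1. Among them *Lamb1* had means of 18.7 ± 6.33 and 14.7 ± 1.56 FPKM and *Lamb2*, the laminin beta chain of the glomerular basement membrane, 11.5 ± 3.55 and 10.9 ± 2.91 FPKM. Neither list had a gene at the study's threshold.

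**Figure D5:**
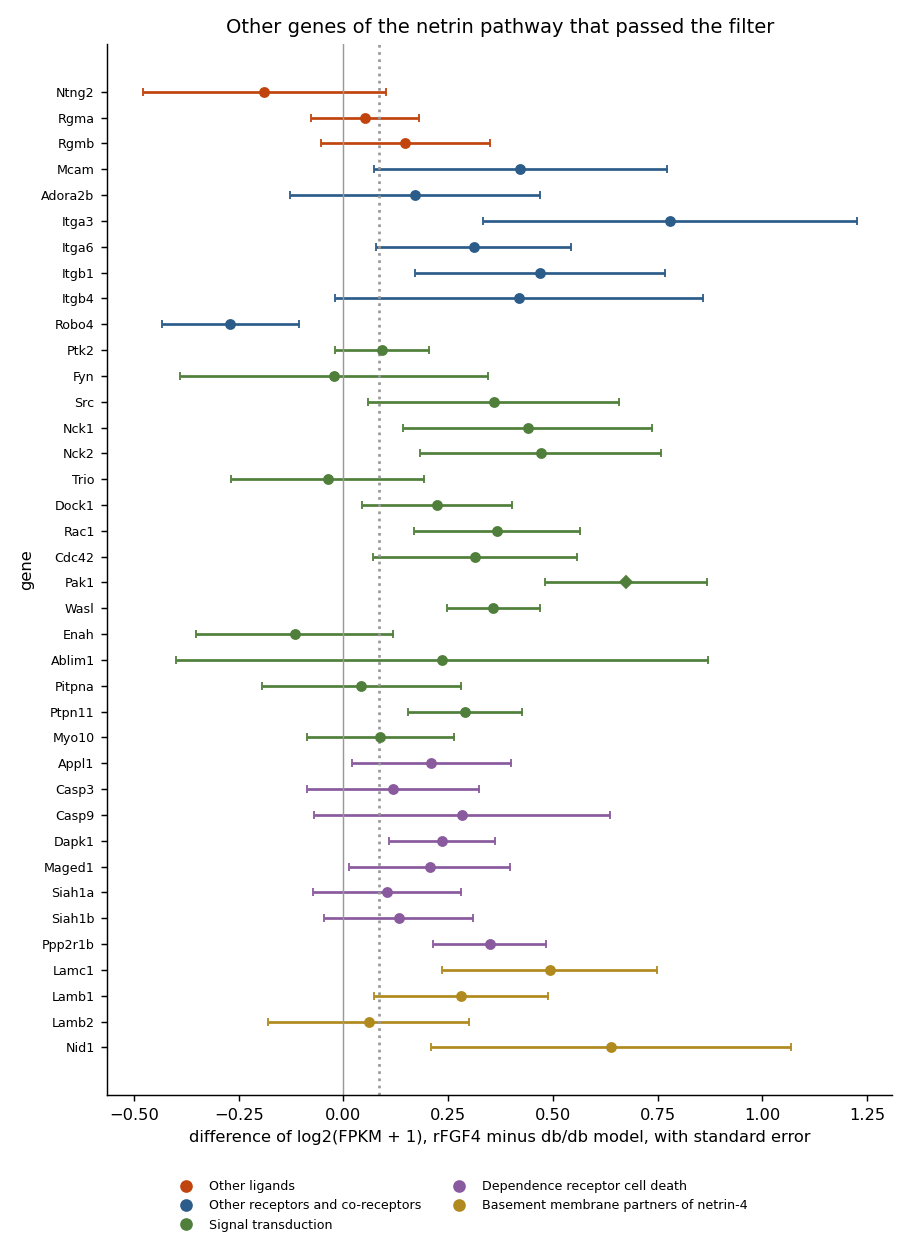
Difference in log2(FPKM + 1), rFGF4 minus db/db model (horizontal axis), with standard error bars, for the 38 pathway genes that passed the filter, coloured by list; the solid line marks 0, the dotted line the median of all tested genes, and the diamond the gene at the study's threshold. The point estimates ran from -0.27 for *Robo4* to 0.78 for *Itga3*, and *Pak1* was the gene at the threshold.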

How the data were processed

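Poly(A) RNA from kidney was sequenced as paired-end libraries, 4 per group, and groups were taken from the sample labels. The authors deposited 1 table of FPKM values, which they made with StringTie by assembling each library, merging the assemblies and scaling exon fragments by exon length and mapped reads. The submitters' processing notes name Bowtie 0.12.2, HISAT2 2.0, StringTie 1.3.0 and build mm8. The table holds Ensembl identifiers and no positions, and 99.5% of them were found in GENCODE M21, from which positions were taken. The labels name a NovaSeq instrument and the study's methods a HiSeq. The log2 fold changes, fold changes, p-values, q-values and calls of the authors' own edgeR comparison, as deposited in that table, were not used.

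FPKM values are not counts, so log2(FPKM + 1) was fitted with limma 3.58.1 (R 4.3.3, trended variance, robust off) on the 15150 genes with 0.5 FPKM or more in at least 4 libraries. The fold change therefore understates that of low genes. The order of member levels and their correlations were tested by exact permutation in Python 3.11.15. The fit was tested on simulated data. Depth is unknown, so no counting intervals are given. Named were all 8 members, the pathway genes at the threshold and the 2 most abundant genes of each pathway list, the 3 genes most like each tested member, and the summed marker lists. A few others are named as chosen after their values were seen or to illustrate a list. Members and lists were chosen with earlier results of these data known.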

Additional observations from a re-analysis of the deposited data

Results flagged for a closer look

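In groups of 4 libraries, a value was singled out when its gap to the nearest other library exceeded Dixon's 95% limit, as a share of the group's range on the log2(FPKM + 1) scale. Of 34 groups looked at, 17 genes in each of the 2 conditions, 5 were singled out. A rate of about 1 in 20 would give 1.7. Some of the genes were chosen with results of these data known, so nothing is read from that difference. *Ntn1* in db/db model 2 (6.22 FPKM, the others 0.183 to 0.371 FPKM) had a gap of 0.918. All of the other flags fell on db/db model 5: *Unc5b* (2.51 FPKM, the others 1.17 to 1.25 FPKM) with 0.922, *Unc5c* (0.249 FPKM, the others 0.165 to 0.170 FPKM) with 0.936, *Rac1* (53.5 FPKM, the others 38.4 to 40.1 FPKM) with 0.872 and *Maged1* (25.2 FPKM, the others 17.6 to 18.4 FPKM) with 0.879. No rFGF4 library was singled out for these genes.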

How the results depend on the processing

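Each fit was repeated with a pseudocount of 0.1, no filter, a filter of 1 FPKM, median-ratio scaling, array weights, each library left out, a replicate block, and, added after seeing the data, without both rFGF4 1 and db/db model 2. The set was chosen on this contrast, so the members' counts of calls below are a description and say nothing of stability. The difference in *Ntn1* was 3.33 with the pseudocount of 0.1 and 1.90 to 2.77 with libraries left out. Ranges with 1 library left out were 188 to 580 for genes at the threshold (434 without db/db model 5, 580 without rFGF4 5; 496 with array weights; 232 with all libraries), 0 to 1 for genes and for members with an adjusted p under 0.05 (1 gene each without db/db model 2, 4 or 5), and 0 to 5 for pathway genes at the threshold (0 without rFGF4 1, 2 without db/db model 5, 5 without rFGF4 5). Without both rFGF4 1 and db/db model 2 the counts were 1 gene and 1 member. Both of these member counts come from leaving out db/db model 2, the db/db model library with high *Ntn1*, and nothing is read from them. Pathway genes at the threshold numbered 0 with median-ratio scaling and without both libraries, 3 with array weights and 1 in the main comparison. *Neo1* was above *Unc5b* by 0.18 to 0.33 with 1 library left out, the 0.33 being without rFGF4 1, the only library with the opposite order, so nothing is read from it. The correlation of *Unc5b* and *Neo1* was 0.62 after median-ratio scaling. The causes of these shifts were not tested.

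Libraries numbered 2, 3 and 5 exist in both groups, and their deviations from the group means correlated at -0.23, -0.16 and -0.39. These values gave no sign that the numbers pair libraries, but they are too few to exclude it. With the replicate block on these 6 libraries *Ntn1* differed by 1.81, *Unc5b* by 0.09, *Neo1* by 0.11 and *Ntn4* by 0.01. The pathway count was 0 with the block and 0 without it on the same 6 libraries. Absolute depth, which the FPKM table does not give, limits what can be said of *Unc5a*, *Unc5c*, *Unc5d* and *Dcc*.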
